A study of Mus musculus with 18 samples.

Results

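Exorbital lacrimal glands of NOR mice were compared between 8 and 3 weeks of age, with the 3 libraries labelled for that strain at each age, so 6 of the 18 samples of the series. The series holds glands of male NOR/LtJ mice, a strain used as a model of Sjögren's disease, and of BALB/cJ mice as controls, at 3, 8 and 16 weeks. By the submitters' design text, 3 weeks precedes the disease of the NOR strain and 8 weeks is its early onset. A 3-week library came from 1 mouse and an 8-week library from a pool of 2 to 3 mice, so that age and pooling changed together and cannot be told apart. The NOR samples carry NOD in their titles and NOR/LtJ as their genotype. BALB/c glands of the same ages (3 libraries each) are given beside NOR values for comparison, and a difference between the strains is meant only where its test is given.

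The exorbital lacrimal gland secretes the watery part of the tear film through acinar cells that store and release protein, and in rodents much of this protein consists of lipocalins and secretoglobins that bind odorants and steroids. Between weaning and sexual maturity the gland finishes its growth, and in males its secreted proteins change under androgens. In NOR males lymphocytes gather in the gland during the same weeks, so that maturation and inflammation lie in the same comparison.

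The NOR libraries held 17176276, 11420477 and 6378613 counts at 3 weeks and 15510762, 14894378 and 17475740 at 8 weeks. Library 3 of the 3-week glands was the shallowest, and a floor of 3 counts was 0.527 CPM (normalised counts per 1e+06) in it, against 0.176 CPM in 8-week library 1. Library values are given below in the order of the replicate numbers, and errors of log2 fold changes are standard errors. Counting intervals cover the sampling of reads only and leave out variation between libraries.

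The libraries differed within each age in transcripts of neighbouring tissues, and this is stated before the results. Bpifa2, which encodes a secretory protein of the parotid gland, was at 49.9, 40292 and 42100.1 CPM at 3 weeks and 2316, 11344 and 1527 CPM at 8 weeks. Libraries 2 and 3 of 3 weeks were thus far above library 1, and among the 8-week libraries number 2 was highest. Summed over the 7 parotid markers, of which 6 were tested, the level was 1599, 55775 and 56611 CPM at 3 weeks and 3445, 15217 and 2569 CPM at 8 weeks. Bpifa2 was the most abundant of them at both ages, and Prp2 had no count in any of the 6 libraries. Of the 6 tested, Car6, Prb1, Prh1 and Prpmp5 were called lower at 8 weeks in NOR, 1 was with DESeq2 or with the libraries rich in these transcripts left out, and none was called in BALB/c glands by either tool or at an unadjusted p under 0.05. The 12 submandibular and sublingual markers (8 tested), led by Smr3a, summed to 91.4, 15270.1 and 14461 CPM and then 833, 2960.4 and 559.6 CPM, again low in 3-week library 1. Several of these genes have close paralogs (Dcpp1, Dcpp2 and Dcpp3, and the Klk1 and Prb families), and since reads that map to several places were not counted, their levels are uncertain. In BALB/c glands, 3-week library 2 stood apart in the same genes, with 0.383, 9869.6 and 1.20 CPM of Bpifa2. Of the 11 skeletal muscle markers, all tested, the sum was 20.4, 85.7 and 23.2 CPM at 3 weeks and 169, 169 and 16.5 CPM at 8 weeks, high in 3-week library 2 and in 8-week libraries 1 and 2. None of the muscle markers was called by edgeR or DESeq2 or had an unadjusted p under 0.05, and their median log2 fold change was 1.34. Whether salivary tissue was taken with the gland or the gland itself held these transcripts was not tested.

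Of 13376 genes tested, 1188 (8.88%) were called higher at 8 weeks and 438 (3.27%) lower. A gene was called where its log2 fold change was 1 or more in size and its p, adjusted over all 13376 genes, did not exceed 0.05. The median log2 fold change of all tested genes was 0.03. The 3 libraries of 1 age lay entirely above those of the other for 1171 of the 1188 genes called higher and for 397 of the 438 called lower, a separation that the call itself favours. Over all 13376 genes, 3387 (25.3%) were separated with 8 weeks above and 2821 (21.1%) with 8 weeks below. An unadjusted p under 0.05 was found for 43.4% of all tested genes in NOR, 38.2% in BALB/c glands and 18.6% in the strain difference, and such counts given below for lists are to be read beside these shares. Among genes called higher the median absolute log2 fold change was 2.14, and among those called lower it was 1.56. Most genes called in either direction were of low abundance. A mean of 10 CPM at either age was reached by 269 of the 1188 called higher (22.6%) and 166 of the 438 called lower (37.9%). For 64 of the genes called higher there was no count in any 3-week library, and for 220 there were at most 3 counts in all 3 together. In 867 of the 1188 genes called higher the highest 8-week value was that of library 1, and in 287 of the 438 called lower the highest 3-week value was that of library 3.

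With the 3-week libraries above 1000 CPM of Bpifa2 left out together (NOR 2 and 3 and BALB/c 2), a choice made after seeing the data, 884 genes were called higher and 295 lower. Of the 1188 and 438 genes, 789 (66.4%) and 256 (58.4%) were still called. This fit leaves a single NOR library of 3 weeks, which is assumed to vary like the libraries of the other groups. With the mean log2 CPM of the parotid markers as a covariate instead, 1174 of the 1188 genes (98.8%) and 387 of the 438 (88.4%) were still called. No gene was called in the opposite direction in either fit.

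**Figure D1:**
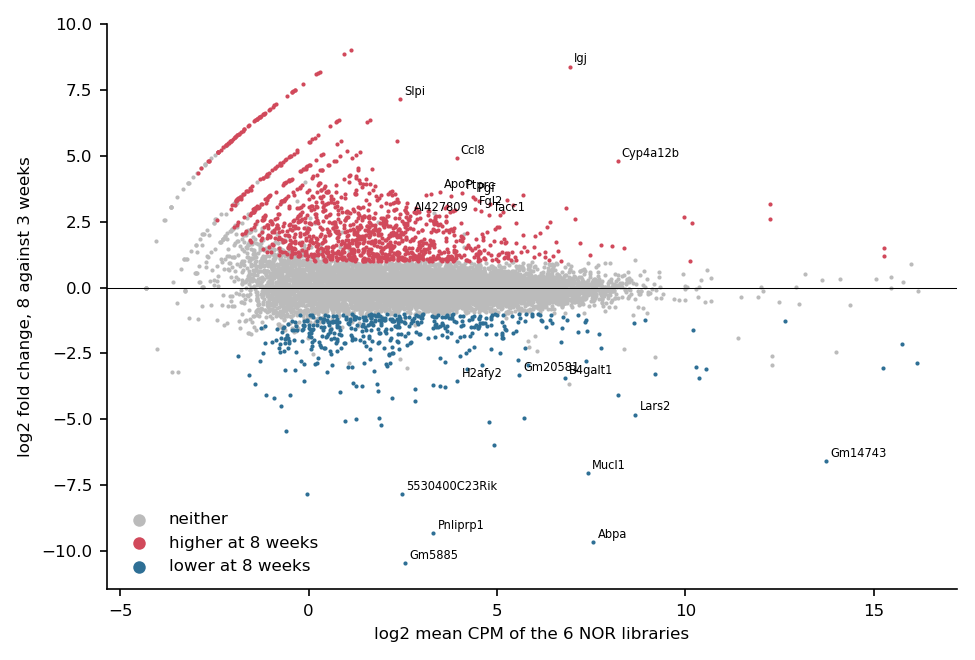
Log2 fold change of NOR glands, 8 against 3 weeks, by mean level over the 6 libraries. Each point is 1 of the 13376 genes tested, and those on the curves at the upper left had few or no counts at 3 weeks.

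Among the 10 genes higher at 8 weeks with the smallest p and no overlap of the libraries, Tacc1, which encodes a centrosome and microtubule protein, was at 7.21, 7.99 and 6.15 CPM at 3 weeks and 47.3, 49.6 and 48.2 CPM at 8 weeks. Its 8-week libraries differed by less than 3 CPM. Fgl2, for a fibrinogen-like enzyme made by macrophages and T cells, rose from 6.29, 3.52 and 4.04 to 42.3, 31.9 and 39.5 CPM, at a log2 fold change of 2.98 ± 0.18 (standard error; quasi-likelihood test of edgeR, adjusted p = 1.7e-09). The change was larger than in BALB/c glands, where it was 1.52 (difference 1.46, adjusted p = 0.009). Slc41a2, a magnesium transporter gene, went from 29.0, 23.5 and 26.0 to 98.4, 105 and 104 CPM (log2 fold change 1.96, adjusted p = 1.7e-09). For Noxo1, which organises an NADPH oxidase, the values were 4.29, 3.71 and 3.34 CPM and then 22.3, 21.3 and 20.7 CPM (log2 fold change 2.47). Its change in BALB/c was 1.42, a difference of 1.05 (adjusted p = 0.032).

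The other 6 of these 10 genes rose in NOR without passing both cutoffs in the strain difference. Fap, a protease gene of activated fibroblasts, rose from 3.36, 3.80 and 2.64 to 16.6, 18.7 and 18.3 CPM. Pgf, for a growth factor of blood vessels, rose from 3.21, 4.47 and 2.28 to 39.7, 46.9 and 27.4 CPM. Their log2 fold changes were 2.41 and 3.45 in NOR and 2.99 and 4.07 in BALB/c glands. Slc6a6 encodes the taurine transporter and had 56.0, 54.2 and 50.6 CPM at 3 weeks and 149, 156 and 122 CPM at 8 weeks. Cyp27a1, a sterol hydroxylase gene, had 17.4 ± 2.29 and 57.1 ± 7.70 CPM (mean ± SD of 3 libraries). Their log2 fold changes were 1.41 and 1.70. Rpa1, for a protein that binds single-stranded DNA, was at 16.7, 14.5 and 14.9 and 38.4, 41.4 and 36.4 CPM (log2 fold change 1.32). The uncharacterised AI427809 was at 1.93, 1.62 and 1.23 and 10.3, 12.2 and 10.9 CPM (log2 fold change 2.73). For all 6, every 8-week library was above every 3-week library, as the choice of these genes required.

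The 6 genes with the largest rises among those reaching 10 CPM were of several kinds. Igj, which encodes the chain that joins antibody molecules made by plasma cells, had 0.857, 0.665 and 0.527 CPM at 3 weeks and 248, 244 and 244 CPM at 8 weeks, at a log2 fold change of 8.39 ± 0.68 (adjusted p = 4.5e-08). The 3 pools were nearly equal. Slpi, for a protease inhibitor of secretions, had 0, 0.0951 and 0.176 CPM at 3 weeks and 11.5, 11.7 and 8.40 CPM at 8 weeks, from 2 and 528 counts, a ratio of 159 with a 95% counting interval of 43.8 to 1315. Ccl8, a chemokine gene, rose from 0.714, 1.33 and 0.879 to 41.8, 27.7 and 18.9 CPM (log2 fold change 4.92, and 5.56 in BALB/c glands), with library 1 the highest pool. Cyp4a12b, a fatty acid hydroxylase gene, rose from 22.4, 23 and 15.3 to 533, 634 and 539 CPM (log2 fold change 4.8, and 3.31 in BALB/c glands), with the pools close together. Ptprc, which encodes the pan-leukocyte antigen, had 2.71, 2.38 and 2.64 CPM at 3 weeks and 45.2, 22.3 and 24.9 CPM at 8 weeks (log2 fold change 3.57), with library 1 the highest of the pools. Apof, for an apolipoprotein, had 1.57, 2.28 and 0.879 and 36.1, 16.4 and 9.34 CPM (log2 fold change 3.62), with library 1 highest and library 3 lowest.

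Of the 10 genes lower at 8 weeks with the smallest p, Mucl1, a mucin-like gene, was at 334, 306 and 375 CPM and fell to 2.87, 1.30 and 3.47 CPM. In BALB/c glands it was under 1 CPM in every library of both ages. Lars2, for the mitochondrial leucyl-tRNA synthetase, had 846, 833 and 686 CPM at 3 weeks and 23.6, 35.5 and 24.6 CPM at 8 weeks, at a log2 fold change of -4.82 ± 0.21 (adjusted p = 1.7e-11). BALB/c glands showed nearly the same fall, -4.95. Abpa, a secretoglobin gene, had 244, 341 and 544 CPM and then 0.293, 0.744 and 0.353 CPM. Its log2 fold change of -9.65 in NOR and -9.97 in BALB/c glands was uncertain, since it has many paralogs. H2afy2, for a variant histone, fell from 24.9, 23.9 and 36.6 to 2.52, 2.29 and 2.29 CPM (log2 fold change -3.56). Tspan3, for a tetraspanin, fell from 55.0, 49.1 and 69.2 to 10.4, 10.04 and 10.6 CPM (log2 fold change -2.47). In both genes 3-week library 3 was the highest and the 8-week libraries were nearly equal.

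Actn1, for an actin-crosslinking protein, was at 322, 317 and 331 CPM and then at 91.3, 89.4 and 106 CPM (log2 fold change -1.76). Got1, for a transaminase, was at 35.5, 33.7 and 40.8 and 14.7, 14.6 and 14.2 CPM (log2 fold change -1.33). The predicted gene Gm20581 was at 107, 75.8 and 81.4 and 7.51, 7.81 and 11.1 CPM (log2 fold change -3.32). The ages lay apart in these 3 genes, as their choice required. Actn1 and Got1 fell more in NOR than in BALB/c glands at an adjusted p of 0.0014 and 0.0056, under the fold change cutoff. B4galt1 encodes a galactosyltransferase of glycoprotein synthesis and fell from 224, 179 and 209 to 13.8, 17.1 and 25.3 CPM. The fall was larger in NOR (-3.44) than in BALB/c glands (-1.39), a difference of -2.06 (standard error 0.30, adjusted p = 0.00069).

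The largest falls among genes reaching 10 CPM also included genes that were nearly silent at 8 weeks. The uncharacterised 5530400C23Rik had 12.7, 9.60 and 10.7 CPM at 3 weeks and 0, 0.0620 and 0.0588 CPM at 8 weeks, from 340 and 2 counts, a ratio of 8 to 3 weeks of 0.00354 (95% counting interval 0.000427 to 0.0129). Gm5885, on the same chromosome, had 9.86, 12.1 and 13.4 CPM at 3 weeks and no count in any 8-week library, so it was at least 65.6-fold lower. In 3-week BALB/c glands both were higher, 5530400C23Rik at 1257, 1360 and 1174 CPM and Gm5885 at 536, 579 and 505 CPM, and at 8 weeks they had at most 1 count in those glands too. Pnliprp1, for a lipase-related protein, was at 5.07, 14.5 and 39.9 CPM at 3 weeks, highest in library 3, and had 1 count in the 3 pools together (ratio 0.00134, interval 3.38e-05 to 0.00749). The predicted gene Gm14743, on the X chromosome, fell from 24309.9, 20469.8 and 36842 CPM to 264, 197 and 393 CPM (log2 fold change -6.58, standard error 0.50).

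A few genes held a large part of all counts. The 10 most abundant genes of 3 weeks took 54.6%, 51.1% and 53.2% of the counts at that age, and the 10 of 8 weeks took 53.7%, 50.3% and 55.3%, with 7 genes in both sets. Obp1a, an odorant-binding lipocalin gene on X, led at 3 weeks with a mean of 11.2% of the counts and had 1.86% at 8 weeks. Abpe, of the androgen-binding secretoglobins, led at 8 weeks with 8.90%, against 4.01% at 3 weeks. Per kilobase of gene length, Obp1a had a mean of 169636 CPM at 3 weeks and 23556 CPM at 8 weeks, and Abpe had 90279 and 165981 CPM, so that their order reversed between the ages. Reads of these genes that also match a paralog were not counted, and their levels and fold changes are uncertain for that reason.

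Of the 13 genes in either set, 3 were called lower and 2 higher. Obp1a went from 153059, 115701 and 116484 to 10077, 21552 and 21867 CPM (log2 fold change -2.85, adjusted p = 2.8e-06). The predicted gene Gm5938, also on X, went from 83868, 63006 and 61139 to 4674, 10509.8 and 10181 CPM (log2 fold change -3.04), and in both genes 8-week library 1 was the lowest. Spt1, a salivary protein gene on chromosome 15, had 81837, 75535 and 114995 and 18074, 14979 and 28369 CPM (log2 fold change -2.15). Mup4, for a major urinary protein, rose from 29905, 20360.2 and 11644 to 62474, 55316 and 59173 CPM (log2 fold change 1.52). The secretoglobin gene Abph rose from 33472, 22981 and 16398 to 52146, 48868 and 65463 CPM (log2 fold change 1.19). Abpe, Abpd, Abpz, Gm1553, Gm4684, Gm5325 and Gm5326 were not called, and their log2 fold changes lay between -0.12 (Gm1553) and 0.88 (Abpe). Bpifa2, described above, was not called either (log2 fold change -2.44, standard error 2.54).

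**Figure D2:**
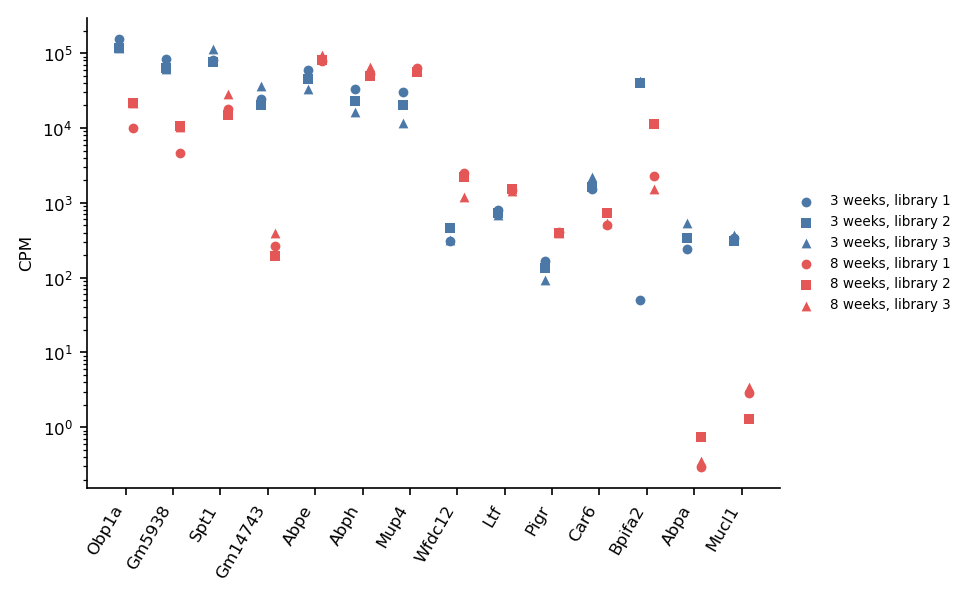
Levels of genes for secreted proteins in each NOR library. Symbols mark the replicate numbers and colours the ages.

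In the list of tear and exocrine secreted proteins, with 39 of 42 genes in the table and 35 tested, 8 members were called higher (5 with the libraries rich in salivary transcripts left out) and 8 lower, and the median log2 fold change was 0.22. The members called made up 22.9% each way, against 8.88% of all genes called higher and 3.27% lower. Ltf, for the iron-binding lactoferrin of tears, had 799, 728 and 692 CPM at 3 weeks and 1492, 1541 and 1427 CPM at 8 weeks (log2 fold change 1.01). Pigr, whose product carries antibodies into secretions, had 169, 136 and 93 and 407, 396 and 401 CPM (log2 fold change 1.59). The antibacterial Wfdc12 had 307, 456 and 318 and 2479, 2183 and 1195 CPM (log2 fold change 2.44), with 8-week library 3 lowest of the pools. These 3 also passed both cutoffs in BALB/c glands. Lyz1, Prol1, Abph, Gm5886 and Chi3l1 (listed as Chil1) were the other members called higher, and Mucl1, Abpa, Abpg, 5530400C23Rik, Obp1a, Spt1, Car6 and Prlr were called lower. Car6, for a secreted carbonic anhydrase, fell from 1538, 1649 and 2190.3 to 501, 722 and 544 CPM (log2 fold change -1.61, adjusted p = 1.9e-06), and in BALB/c glands it changed by -0.16. The difference was -1.45 (adjusted p = 0.0022). Lpo, for a peroxidase, was at 10775, 9430.5 and 10150.1 and 6204, 5902 and 7375 CPM (log2 fold change -0.64, adjusted p = 0.0062, under the fold change cutoff). Prlr, the prolactin receptor gene, fell from 19, 19.4 and 26.4 to 1.99, 2.67 and 4.35 CPM (log2 fold change -2.82, and -2.65 in BALB/c glands). Prol1, for a proline-rich protein, rose from 0.143, 3.04 and 4.39 to 15.8, 10.5 and 12.3 CPM, and in BALB/c glands from 0.0547, 0.161 and 0 to 10.9, 16.5 and 15 CPM. It is also a marker of the submandibular and sublingual glands, and its NOR values of 3 weeks were raised in libraries 2 and 3, which were rich in salivary transcripts. With 2 counts in NOR library 1 and 3 counts in the BALB/c libraries of that age together, no exact fold is given and its strain difference is uncertain. Of this list, 5530400C23Rik passed both cutoffs upward in the strain difference, and Prol1, Car6, Gm5886, Gm6084 and Odam passed downward. Odam too was higher at 3 weeks in NOR libraries 2 and 3 than in library 1.

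In the list of 35 genes for the secretory stimulus and ion transport, 33 were tested, 2 were called higher (6.06%, against 8.88% of all genes) and 5 lower (15.2%, against 3.27%), and the median was 0.01. Chrm1, for a muscarinic receptor, rose from 3.07, 2.00 and 2.64 to 9.68, 8.37 and 10.1 CPM (log2 fold change 1.85), while Chrm3, the other muscarinic receptor listed, had a log2 fold change of -0.11 (adjusted p = 0.52). Slc4a4, for a bicarbonate cotransporter, fell from 24.7, 28.6 and 34.1 to 10.1, 11.2 and 9.40 CPM (log2 fold change -1.49), and the strain difference was -1.37 (adjusted p = 0.001). Stim1, the calcium sensor of the endoplasmic reticulum, fell from 62.4, 59.2 and 81.2 to 31.9, 31.5 and 27.1 CPM (log2 fold change -1.15). Kcnn4, for a potassium channel, was at 5.43, 38.8 and 39.0 CPM at 3 weeks and 7.62, 8.74 and 5.82 CPM at 8 weeks. It was high only in the 2 3-week libraries rich in salivary transcripts, and its log2 fold change of -1.84 became 0.40 when those were left out. Atp1b1, for a sodium pump subunit, was likewise high in libraries 2 and 3 of 3 weeks, at 20.2, 66.1 and 64.2 CPM, and was at 17.7, 24.1 and 17.7 CPM at 8 weeks. With those libraries left out, 2 members of the list were called lower.

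Of 12 genes for acinar cells and gland identity, all tested, 1 was called higher (8.33%, against 8.88% of all genes) and 2 lower (16.7%, against 3.27%). The summed level was 1661, 1584 and 1509.8 CPM at 3 weeks and 1090.4, 1122 and 1227 CPM at 8 weeks, lower in every pool. Bhlha15, a transcription factor gene of secretory cells, was the most abundant member at both ages. Sox10, a transcription factor gene of gland development, was at 9.43, 21.6 and 23.9 CPM at 3 weeks and 8.21, 8.68 and 7.05 CPM at 8 weeks. Barx2, of the same role, was at 6.29, 12.5 and 11.8 and 4.16, 5.52 and 4.47 CPM. Both were called lower, and both were highest in 3-week libraries 2 and 3, which were rich in salivary transcripts. Neither was called with those left out, at log2 fold changes of -0.28 and -0.46, or without library 2 or 3 alone, and Barx2 was not called without 8-week library 1. Runx3 was called higher. Of 10 duct and myoepithelial markers, 9 were tested and none was called by edgeR or DESeq2 (median 0.45), with 5 higher and 1 lower at an unadjusted p under 0.05 (43.4% of all genes). In the list of 28 genes for the endoplasmic reticulum and the unfolded protein response, all tested, none was called by either tool, and the median was -0.05. At an unadjusted p under 0.05, 4 were higher and 5 lower (43.4% of all genes, a difference that was not tested). Since these are whole glands, fewer cells of a type and less RNA per cell cannot be told apart, here and for the lists below.

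Among 24 cholesterol synthesis genes (23 tested), Fdft1 and Sqle were called lower (8.70%, against 3.27% of all genes) and the median was 0.04. Fdft1, for squalene synthase, was at 25.4, 24.3 and 50.1 CPM and then 3.64, 3.29 and 4.52 CPM (log2 fold change -3.08), with -5.06 in BALB/c glands (difference 1.98, adjusted p = 0.011). Among 26 genes of lipid transport and fatty acid metabolism (25 tested), 9 were called higher (36%, against 8.88% of all genes) and 2 lower (8%, against 3.27%). BALB/c glands had 5 of the 25 called higher and none lower. Abca1, a lipid export gene, rose from 22.8, 27.5 and 20.9 to 59.8, 61.5 and 59.3 CPM (log2 fold change 1.33). Apoe, for a lipid carrier that macrophages make, rose from 102, 96.6 and 116 to 263, 242 and 235 CPM (log2 fold change 1.24). Scd2, a desaturase gene, had 183, 226 and 105 and 452, 516 and 491 CPM (log2 fold change 1.5). Its paralog Scd1 was at 197, 305 and 193 and 323, 322 and 353 CPM (log2 fold change 0.52, not called), against a log2 fold change of 3.53 in BALB/c glands, a difference of -3.01 (adjusted p = 9.5e-06).

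Part of the matrix, endothelial and imprinted growth genes was lower at 8 weeks. The counts of these lists are to be read beside the 3.27% of all tested genes called lower. Of 30 extracellular matrix genes, all tested, 8 were called lower and none higher, with a median of -0.63 in NOR and -0.60 in BALB/c glands. Their summed level was 1839, 1882 and 1735 CPM at 3 weeks and 976, 888 and 776 CPM at 8 weeks, with Col3a1 the most abundant. Col1a1, for a fibrillar collagen, fell from 167, 174 and 165 to 45.7, 41.8 and 31.9 CPM (log2 fold change -2.08, adjusted p = 1.1e-07). Sparc, for a protein that binds collagen, fell from 253, 256 and 256 to 85.5, 85.9 and 70.7 CPM (log2 fold change -1.66). The 3 libraries of each age were close together in both genes. With the libraries rich in salivary transcripts left out, 5 of the 30 were called lower. Of the 8 fibroblast markers, the 3 collagens Col1a1, Col1a2 and Col3a1 were called lower and the other 5 were not called (fibroblast median 0.04). The summed level of 8 endothelial markers was 54.5, 68.2 and 76.6 CPM at 3 weeks and 42.8, 39.6 and 39.5 CPM at 8 weeks, led by Plvap, with 4 called lower (median -0.81, BALB/c -0.79), and 2 without 3-week library 3 or with the libraries rich in salivary transcripts left out. Of 14 imprinted growth genes, 11 were tested and Igf2, H19, Plagl1, Peg3 and Grb10 were called lower. Igf2, a fetal growth factor gene, was at 3.79, 4.18 and 4.57 CPM and then 0.938, 1.74 and 0.823 CPM. The sum of the list went the other way, from 127, 149.7 and 138 CPM to 184, 168 and 182 CPM, with most of it from Igf2r, for a receptor that clears Igf2, which was not called (log2 fold change 0.72). The median of this list was -0.73 in NOR and -1.0 in BALB/c glands, and none of its members passed the cutoffs in the strain difference by either tool (1 upward at an unadjusted p under 0.05). Of 7 red cell genes, 2 were tested, and both Beta-s (listed as Hbb-bs) and Alas2 were called lower.

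The calls of the cell cycle list depended on which libraries were used. Of 30 genes, all tested, 9 were called lower (30%, against 3.27% of all genes), with a median of -0.84. The 3 called higher were Mcm3, Mcm5 and Mcm6 (10%, against 8.88% of all genes). The summed level was 110.2, 185 and 297 CPM at 3 weeks, lowest in library 1 and highest in library 3, and 155, 141 and 141 CPM at 8 weeks, with Mki67 the most abundant. Mki67, a marker of dividing cells, was at 17.1, 35.4 and 51.5 and 24.9, 21.5 and 22.4 CPM and was not called (log2 fold change -0.54), while it rose in BALB/c glands (1.40, difference -1.94, adjusted p = 0.0082). Ube2c, for an enzyme of mitotic exit, was at 1.64, 3.90 and 10.02 CPM at 3 weeks and 1.23, 0.806 and 0.764 CPM at 8 weeks, with 3-week library 1 close to the pools. Mcm3, of DNA replication, went the other way, from 1.36, 1.24 and 1.93 to 6.45, 5.83 and 5.47 CPM (log2 fold change 2.03), and its strain difference was 2.20 (adjusted p = 0.0048). With the libraries rich in salivary transcripts left out, none of the 30 genes was called lower, without 3-week library 1 there were 16, and without 3-week library 3 there were 4. Of the 17 clock genes, Nfil3 and Arntl were called lower (11.8%, against 3.27% of all genes). The time of day at which glands were taken was not recorded in the labels.

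Over all 37 lists, 575 distinct genes were tested, of which 217 were called higher and 55 lower. Of all 13376 tested genes, 8.88% were called higher and 3.27% lower. The lists were chosen with earlier results of these data known, so their counts are no fair sample of all genes. In the lists not described elsewhere, 2 of 7 adipocyte markers were called lower (3 with DESeq2), from a sum of 62.0, 115 and 85.2 CPM to 52.6, 25.7 and 42.2 CPM. Among 15 genes of steroid hormones, 1 was called lower (Prlr, 6.67%, against 3.27% of all genes). Among 15 immediate-early genes, 2 were called higher (Jun and Atf3, 13.3%, against 8.88% of all genes). Whether these shares differ from those of all genes was not tested.

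In the lists of inflammation genes given next, part or all of the tested members were called higher at 8 weeks in NOR. Their counts are to be read beside those of all tested genes. Of these, 8.88% were called higher in NOR and 4.37% in BALB/c glands, and 1.29% passed both cutoffs upward in the strain difference. In the list of 35 interferon-induced genes, all tested, 34 were called higher and none lower, and the median log2 fold change was 2.71, against 0.27 in BALB/c glands, where 1 was called. In 23 of the 35 the NOR change exceeded that of BALB/c glands past both cutoffs (28 with DESeq2), a count that depended on the cutoff and the libraries. It was 0 under glmTreat of edgeR, a stricter test of the fold change, with 30 of the 35 higher at an unadjusted p under 0.05 without it, and 1 with the libraries rich in salivary transcripts left out. Without single libraries it was 8 and 14 (NOR 3-week 1 and 3), 12 (NOR 8-week 1), 9 and 14 (BALB/c 3-week 1 and 2), and 15 and 11 (BALB/c 8-week 1 and 2). The summed level was 115, 155 and 123 CPM at 3 weeks and 731, 488 and 446 CPM at 8 weeks in NOR, and 135, 153 and 109.7 and 155, 140.1 and 166 CPM in BALB/c glands. Stat2 was the most abundant member at 3 weeks. Stat2, which carries the signal of interferon receptors to the nucleus, rose from 26.7, 30.8 and 26.7 to 82.5, 67.5 and 65.9 CPM (log2 fold change 1.35, standard error 0.15, adjusted p = 1.5e-06). Cxcl9, for a chemokine that draws T cells, rose from 0.0714, 0.190 and 0.527 to 17.8, 5.39 and 6.23 CPM (log2 fold change 5.56). Ifit1, an antiviral gene, rose from 1.43, 1.43 and 1.05 to 12.6, 10.9 and 7.99 CPM (log2 fold change 2.95). Irf8 was the only member not called (log2 fold change 0.93). 

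All 11 genes of MHC class II were called higher, with a median of 3.33 (3.23 with H2-Oa, which had no count at 3 weeks, at its bound). Their summed level was 49.0, 52.0 and 56.4 CPM at 3 weeks and 624, 419 and 357 CPM at 8 weeks, led by Cd74, the invariant chain gene. In BALB/c glands the median was 1.71, and the sums were 36.9, 40.8 and 33.8 CPM and then 120.1, 106 and 132 CPM. There 4 of the 11 were called higher (6 with DESeq2), and 2 of the 11 passed both cutoffs in the strain difference with edgeR and 2 with DESeq2. H2-Aa had 8.14, 8.08 and 8.79 CPM at 3 weeks and 129, 84.9 and 72.9 CPM at 8 weeks (log2 fold change 3.53). Of 17 genes of MHC class I and antigen processing, 15 were tested and 13 called higher (median 1.96). BALB/c glands had 3 of the 15 called higher, and 1 passed both cutoffs in the strain difference. Psmb8, for a subunit of the immunoproteasome, rose from 2.29, 3.23 and 2.64 to 33.1, 17.5 and 14.6 CPM (log2 fold change 3.01). B2m, for the light chain of class I molecules, was at 42.1, 153 and 128 CPM at 3 weeks and 425, 363 and 204 CPM at 8 weeks (log2 fold change 1.62). Its 3-week value was low in library 1, which also had few salivary transcripts, and each pool was above the highest 3-week library. The MHC class I genes are a family with close paralogs, and their levels are uncertain.

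Of 47 chemokines and their receptors, 38 were tested, 28 were called higher and Ccl25 lower (not called with DESeq2, without 8-week library 1 or 3, or with the libraries rich in salivary transcripts left out), with a median of 2.87 (2.80 with 2 genes without a 3-week count at their bound) against 0.40 in BALB/c glands. In BALB/c glands 5 of the 38 were called higher (6 with DESeq2). In the strain difference 6 of the 38 passed both cutoffs (10 with DESeq2), among them Ccl5, Ccl9, Cxcl10, Cxcl16 and Cx3cr1. Ccl9, which draws monocytes, rose from 22.4, 21.2 and 18.5 to 95.5, 89.3 and 65.5 CPM (log2 fold change 2.00). Ccl5, which draws T cells, rose from 0.643, 0.475 and 0 to 9.91, 4.90 and 3.41 CPM (log2 fold change 3.72). Cxcl1, which draws neutrophils, had no count at 3 weeks and 5.04, 4.22 and 3.47 CPM at 8 weeks, at least 12.4-fold more. Cxcl13, which organises B cells, had 0.143, 0.380 and 0.703 and 6.74, 3.97 and 5.05 CPM (log2 fold change 3.94). With the libraries rich in salivary transcripts left out, 18 of the 28 were called. Of 40 cytokine and TNF family genes, 30 were tested, 15 were called higher (13 with DESeq2) and none lower by either tool (1 at an unadjusted p under 0.05), with a median of 2.35 (2.05 with 1 gene at its bound). None of the 30 passed both cutoffs in the strain difference with edgeR, where 9 had an unadjusted p under 0.05 (18.6% of all genes), and 7 passed with DESeq2. Tnf had 3 counts at 3 weeks and 116 at 8 weeks (ratio 23.3, 95% counting interval 7.77 to 114). Ifng, Il2, Il4, Il6, Il10, Il17a and Il21 were among the 10 members with too few counts to be tested. Of 14 genes of the Toll-like receptors and their partners, 10 were called higher (71.4%, median 1.77, or 1.64 with 1 gene at its bound). BALB/c glands had 2 of the 14 called higher, and 2 passed both cutoffs upward in the strain difference.

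Markers of lymphocytes were close to absent at 3 weeks. All 12 T cell markers were called higher, with a median of 4.48 (3.58 with the 4 genes without a 3-week count at their bound). Their summed level was 1.36, 0.856 and 1.41 CPM at 3 weeks and 38.5, 15.6 and 17.4 CPM at 8 weeks, led by Cd4 at both ages, with Cd3d, Cd5, Cd8a and Cd8b1 at 0 at 3 weeks. Cd4 rose from 0.429, 0.285 and 0.176 to 6.45, 4.4 and 4.35 CPM (log2 fold change 3.91), and Cd8a was at least 4.0-fold higher. All 10 B cell markers were called higher as well, with a median of 5.93 (4.02 with 4 genes at their bound). The B cell sum was 0.214, 0.380 and 0.352 CPM and then 32.3, 11 and 17.8 CPM, with Cd79a, Ms4a1, Cr2 and Pax5 at 0 at 3 weeks. In BALB/c glands of 8 weeks the T cell sum was 1.34, 0.839 and 1.02 CPM and the B cell sum 0.550, 0.699 and 1.07 CPM, and none of the 22 markers was called there by either tool or had an unadjusted p under 0.05. None passed the cutoffs in the strain difference with edgeR, where 4 T cell markers had an unadjusted p under 0.05, and 1 passed with DESeq2. With the libraries rich in salivary transcripts left out, 10 T cell and 2 B cell markers were called, in a fit with 1 NOR library of 3 weeks. Without 3-week library 1 there were 6 B cell markers.

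Of the 8 plasma cell markers, 5 were called higher: Igj, 2010001M09Rik (listed as Mzb1), Pou2af1, Irf4 and Tnfrsf17. In BALB/c glands 4 of the 8 were called higher as well, and none passed both cutoffs in the strain difference with edgeR, where 2 had an unadjusted p under 0.05 and 2 passed with DESeq2. Their sum was 266, 244 and 281 CPM at 3 weeks and 465, 479 and 489 CPM at 8 weeks. Derl3, which acinar cells express as well, was most abundant at 3 weeks, and Igj at 8 weeks. Derl3 was not called, at 246, 228 and 267 CPM and then 179, 195 and 207 CPM, so the sum is a poor measure of the other markers. All 8 markers of NK or cytotoxic cells were called higher (median 3.29), from a sum of 1.57, 1.24 and 0.879 to 23.2, 9.73 and 7.93 CPM, with Klrk1 leading at 8 weeks. None was called in BALB/c glands. In the strain difference none passed both cutoffs with edgeR, where 5 had an unadjusted p under 0.05, and 1 passed with DESeq2. Of these 8, 5 were called without 3-week library 1, and 4 without 8-week library 1 or with the libraries rich in salivary transcripts left out. Of 10 macrophage markers, 9 were called higher and Mertk was not (median 2.06). Of the 10, 5 were called higher in BALB/c glands and all 10 were higher there at an unadjusted p under 0.05 (median 1.04). None passed both cutoffs in the strain difference with edgeR, where 5 had an unadjusted p under 0.05, and 2 passed with DESeq2. The macrophage sum was 97.9, 98.1 and 89.6 CPM at 3 weeks and 441, 326 and 301 CPM at 8 weeks, led by Lyz2. Of 9 dendritic cell markers, 6 were called higher in NOR and 3 in BALB/c glands. Itgax, among the 6, was at 0.643, 0.951 and 1.23 and 12.3, 8.49 and 6.41 CPM. Its strain difference was 2.99 (adjusted p = 0.029), and it was the only 1 of the 9 past both cutoffs there. Mast cell markers had 1 gene called higher of 6 tested (16.7%, median 0.32), and 4 of the 6 were called higher in BALB/c glands (median 1.17). Of the neutrophil markers only Mmp9 had enough counts to be tested. Mmp9 was not called in NOR (log2 fold change -0.69) and was called higher in BALB/c glands (2.92). No marker of these 2 lists passed both cutoffs in the strain difference with edgeR, and 1 mast cell marker passed downward with DESeq2.

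Many of the tested genes that leukocytes use to enter and signal were also called higher, while others were not. Of 20 leukocyte adhesion genes, 19 were tested and 15 called higher (median 2.32). There were 4 of the 19 called higher in BALB/c glands, and 2 passed both cutoffs in the strain difference (4 with DESeq2). Vcam1, an adhesion gene of activated endothelium, rose from 1.86, 1.43 and 0.879 to 9.85, 5.89 and 6.70 CPM (log2 fold change 2.32), and its strain difference was 2.62 (adjusted p = 0.032). Among the 7 markers of high endothelial venules, Sele and Selp were called higher. Selp was not called with DESeq2 or without library 1 of either age, and Sele was not with the libraries rich in salivary transcripts left out. Glycam1 had 1 count in the 6 libraries, and Madcam1 had none. Their sum was 1.36, 1.71 and 2.81 CPM and then 3.64, 2.98 and 2.53 CPM, and the ages overlapped. Of 28 lymphocyte signalling genes, 21 were called higher (median 2.62, or 2.40 with 1 gene at its bound). Among them were Lat, Btk, Ctla4, Pdcd1 and Foxp3, the last with 1 count at 3 weeks and 20 at 8 weeks. BALB/c glands had 2 of the 28 called higher, and 1 passed both cutoffs in the strain difference (4 with DESeq2). For T, B, NK, dendritic and macrophage markers alike, 8-week library 1 had the highest sum.

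**Figure D3:**
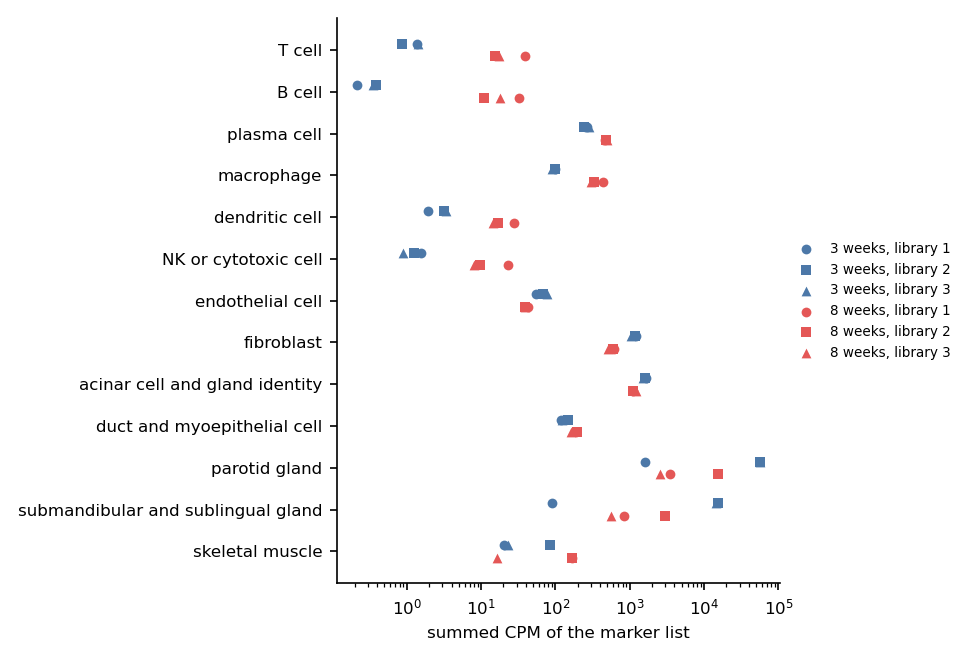
Summed CPM of marker lists in each NOR library. Symbols mark the replicate numbers and colours the ages.

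The change from 3 to 8 weeks differed between the strains, past both cutoffs, in 297 genes, with 173 (1.29%) changing more upward in NOR and 124 (0.927%) more downward. In BALB/c glands themselves, 584 genes (4.37%) were called higher at 8 weeks and 345 (2.58%) lower. Of the 1188 NOR genes called higher, 116 were among the 173, and of the 438 called lower, 49 were among the 124. Without the 3 libraries rich in salivary transcripts, 36 and 71 genes passed. Single libraries also moved the 173, to 84 without NOR 3-week library 1, 90 without NOR 8-week library 1, 109 and 104 without BALB/c 3-week libraries 1 and 2, and 101 without BALB/c 8-week library 2.

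Among the 8 genes with the smallest p that changed more upward in NOR, Gpr155, for a membrane protein of cholesterol sensing, went in opposite directions. It was at 13.1, 10.2 and 10.2 CPM at 3 weeks and 40.1, 30.9 and 31.4 CPM at 8 weeks in NOR, and at 25.6, 28.0 and 25.4 and 7.47, 5.66 and 8.80 CPM in BALB/c glands (difference 3.43, standard error 0.21, adjusted p = 1.7e-08). Adar, an RNA editing gene that interferon induces, rose from 13.4, 19.96 and 13.9 to 55.4, 51.0 and 52.5 CPM in NOR (log2 fold change 1.74, against 0.43 in BALB/c glands, difference 1.32). The transcription factor gene Klf6 rose from 25.3, 20.8 and 17.9 to 58.2, 55.8 and 48.1 CPM (log2 fold change 1.31, against 0.15 in BALB/c glands, difference 1.17). For Slc41a2, given above, the difference was 1.49. The other 4 fell in BALB/c glands, and in NOR 3 of them fell by less and Cdo1 was not called. Dnase1, for a secreted nuclease, had 8233, 8727 and 10178 and 3484, 3933 and 3886 CPM in NOR and 4538, 4696 and 5002 and 267, 191 and 251 CPM in BALB/c glands (difference 3.06). Sult1d1, a sulfotransferase gene, and the uncharacterised 4930597G03Rik had differences of 2.42 and 3.24. Cdo1, for an enzyme of cysteine breakdown, was at 65.2, 73.2 and 86.1 and 63.5, 71.6 and 61.2 CPM in NOR, with overlap, and had a log2 fold change of -1.52 in BALB/c glands (difference 1.34).

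Among the 8 that changed more downward in NOR, Dpyd, for the enzyme that breaks down pyrimidines, fell from 8.79, 8.37 and 7.91 to 1.94, 3.35 and 2.17 CPM while it rose from 24.4, 28.7 and 28.1 to 58.0, 58.6 and 66.2 CPM in BALB/c glands (difference -2.94, adjusted p = 3.7e-08). St3gal5, a sialyltransferase gene, also went in opposite directions, from 17.1, 18.5 and 18.8 to 6.45, 7.07 and 5.29 CPM in NOR and from 4.0, 6.29 and 4.68 to 10.9, 10.7 and 9.42 CPM in BALB/c glands (difference -2.59). The predicted gene Gm12886 fell from 1206, 972 and 988 to 102, 108 and 119.8 CPM in NOR and was not called in BALB/c glands (log2 fold changes -3.27 and 0.31, difference -3.58). The other 5 rose in BALB/c glands and were not called in NOR. Baiap2l1, of membrane and actin remodelling, was at 61.0, 53.7 and 63.3 and 49.3, 47.8 and 51.7 CPM in NOR and at 65.8, 60.4 and 68.1 and 203, 201 and 187 CPM in BALB/c glands (difference -1.86). For the membrane protein gene Rell1 the difference was -1.64, for the sialyltransferase gene St6galnac2 -2.06, for the microtubule protein gene Eml1 -1.84 and for the proteoglycan gene Sdc3 -2.06.

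**Figure D4:**
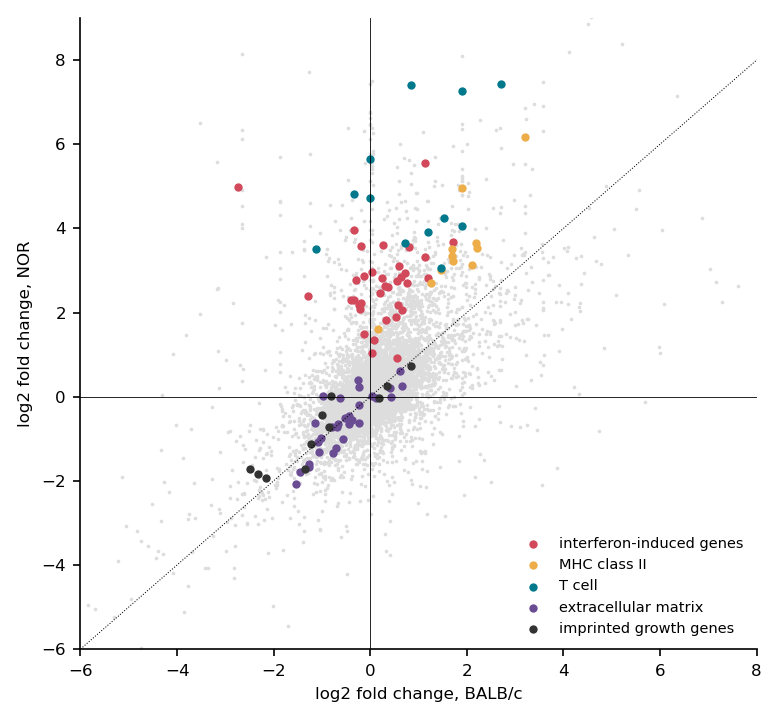
Log2 fold change of 8 against 3 weeks in NOR and BALB/c glands, with the members of 5 lists in colour. The dotted line marks equal changes.

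By symbol, 421 families had at least 5 tested genes, and in 21 of them at least 3 members and no fewer than 50% of those tested were called higher. None met this rule for genes called lower, which were 3.27% of all tested genes, against 8.88% called higher. The guanylate-binding proteins (Gbp) had 9 of 10 members called higher (median 2.94, BALB/c 0.12) and the Oas genes 6 of 6 (median 2.88, BALB/c 0.78). The Ms4a genes (symbol Ms) had 9 of 9 (median 2.73, BALB/c 0.60). The Slamf receptors had 5 of 5 (median 5.18, BALB/c 1.90), with 2 of the 5 called higher in BALB/c glands. Among the others were Ccl (11 of 16), Cxcl (5 of 8), Tlr (9 of 12), Gimap (4 of 8), Slfn (5 of 7), Serpina (5 of 8), Klra (3 of 5) and Parp (6 of 12). Their BALB/c medians ran from -0.20 (Gimap) to 0.80 (Slfn), and 4 of the 16 Ccl and 2 of the 8 Cxcl genes were called higher in BALB/c glands. Such families hold close paralogs, whose shared reads were not counted. By chromosome, the share of tested genes called higher ran from 4.23% on chromosome 18 to 14.2% on chromosome 1, leaving aside Y with 5 tested genes, and the share called lower from 2.11% on chromosome 18 to 4.84% on chromosome 15.

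Promoters of the interferon list held the motif GAAANNGAA, the core of the element that interferon regulatory factors bind, on either strand in 18 of the 26 genes with a promoter in the reference (69.2%), against 8.79% of all tested genes with a promoter. Some genes have several promoters, and by promoter the motif was in 18 of 31 (58.1%), against 8.56% of all 32851 promoters of the same length. For the cell cycle list, TTTGAA or TTCGAA, the element bound by the complex that represses cell cycle genes in resting cells, was present in 14 of 24 genes (58.3%), against 16.6% of tested genes, and in 14 of 25 promoters (56.0%), against 19.2% of all promoters. These are descriptions of sequence, and binding was not measured. Stretches of 60 bases around the first match are shown for Isg15 and Stat2 of the interferon list and Mki67 of the cell cycle list, picked as familiar members after the matches were seen. They are from RefSeq GRCm38.p6, read 5′ to 3′ on the strand of the gene, with matches in capitals (that of Stat2 is the motif of the opposite strand), at chr4:156200862-156200921, minus strand, chr10:128270252-128270311, plus strand, and chr7:135716461-135716520, minus strand.

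Isg15: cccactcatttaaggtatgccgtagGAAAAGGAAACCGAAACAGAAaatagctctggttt

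Stat2: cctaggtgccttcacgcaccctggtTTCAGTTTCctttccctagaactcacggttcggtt

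Mki67: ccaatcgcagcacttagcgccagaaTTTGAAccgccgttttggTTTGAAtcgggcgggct

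Symbols and positions are those of the deposited table (mm10). Counting ignored the strand, so that reads of a gene on the opposite strand were counted together with those of a gene it overlaps.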

How the data were processed

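Per the labels, RNA of exorbital lacrimal glands was sequenced as single 50-base reads of stranded poly(A) libraries. The authors aligned the reads to mm10 with HISAT2 (version not stated) and deposited raw counts per gene symbol from featureCounts 1.6.2, without strand or multi-mapping options, so that reads mapping to several places were not counted.

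From the deposited counts of 23337 genes, edgeR 4.0.16 (R 4.3.3, limma 3.58.1) fitted 1 mean for each of 6 groups over all 18 libraries, with TMM factors, filterByExpr (minimum count 10, total 15) and quasi-likelihood F-tests. This left 13376 genes, over which p-values were adjusted by the method of Benjamini and Hochberg. Genes were called where the adjusted p did not exceed 0.05 and the log2 fold change was 1 or more in size, and the strain difference of the change was tested in the same fit. CPM values are TMM-normalised. A gene without counts at 1 age was set to 3 counts per library there for "at least" folds, and with 1 to 3 counts in all the ratio has a 95% counting interval. That interval is an exact binomial interval on the counts summed over the libraries of each age, without variation between libraries. An exact permutation of 3 against 3 libraries cannot give a p below 0.1. The common dispersion gave a biological coefficient of variation of 13.8%, and 6227 genes had no count in the 6 NOR libraries.

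Named genes are the 10 each way with the smallest p among called genes whose libraries do not overlap, the 6 each way with the largest fold change at 10 CPM or more, the 8 each way with the smallest p in the strain difference, the 10 most abundant at each age, and members of 37 lists (639 symbols, 24 matched by a synonym, 5 absent). The members and lists were chosen with earlier results of these data known. Alternatives were DESeq2 1.42.0 as test or for size factors, TMM without the 20 most abundant genes, other low-count filters and cutoffs (glmTreat), fewer libraries, the replicate number as a block, and the mean log2 CPM of parotid markers as a covariate. Leaving out the libraries rich in salivary transcripts, adding muscle markers as a covariate and all alternatives of the BALB/c comparison were chosen after seeing the data. The fits were tested on simulated data with 100 changed genes at each size of change, changed in the 8-week NOR libraries only. At a log2 fold change of 1.5, 96 were called in the NOR comparison and 90 in the strain difference. At 3, all 100 were called in both. Unchanged genes called were 3 and 7. No gene was changed in the simulated BALB/c libraries. In that comparison 0 of the 100 were called at either size, with a median estimate of 0.00213 at 1.5. How well it recovers real changes is therefore not shown. Tables and figures used Python 3.11.15, numpy 2.4.6, pandas 2.3.3, scipy 1.17.1 and matplotlib 3.10.9.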

Additional observations from a re-analysis of the deposited data

Results flagged for a closer look

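The change from 3 to 8 weeks differed between NOR and BALB/c glands in 173 genes upward and 124 downward, and these are given here since they differ between groups. By the same rule, the log2 differences of the named genes were 3.43 for Gpr155, 3.24 for 4930597G03Rik, 3.06 for Dnase1, 2.42 for Sult1d1, 1.49 for Slc41a2, 1.34 for Cdo1, 1.32 for Adar and 1.17 for Klf6. Downward they were -3.58 for Gm12886, -2.94 for Dpyd, -2.59 for St3gal5, -2.06 for Sdc3, -2.06 for St6galnac2, -1.86 for Baiap2l1, -1.84 for Eml1 and -1.64 for Rell1. Of the genes that rose in NOR among these, Adar is induced by interferon, and it was not called under glmTreat. What led to these differences was not tested.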

How the results depend on the processing

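All 29 genes named for the smallest p or the largest fold change were called the same way in every alternative in which they were tested. Of 297 called list or named genes, 176 kept their call in every alternative and 121 lost it in at least 1, of which 4 reversed. Of the 16 named genes of the strain difference, 12 kept their call, Adar, Cdo1, Klf6 and Slc41a2 lost it under glmTreat, and Klf6 lost it also without the libraries rich in salivary transcripts. Of 322 list counts, which cover 23 of the 37 lists in 1 direction each and leave out the alternatives of cutoff and low-count filter, 298 stayed within 1.5 times. The causes of the changes below were not tested, apart from the stricter or looser construction of the cutoffs.

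By cutoff, glmTreat and no fold change cutoff gave 533 and 2423 genes higher and 146 and 2097 lower in NOR, 194 and 1844 higher and 119 and 1892 lower in BALB/c glands, and 4 and 268 upward and 17 and 235 downward in the strain difference. Upward in the strain difference, DESeq2 gave 275 and a fit of only the groups compared 287. With the rich libraries left out there were 36 upward and 71 downward. Leaving out 1 library gave 972 to 1222 genes higher and 351 to 569 lower in NOR, and 84 to 193 upward and 91 to 133 downward in the strain difference. With parotid and muscle markers as covariates, 1 of the 438 genes called lower in NOR was called in the opposite direction.

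Members called in lists were, with the rich libraries left out, 2 of B cells, 4 of NK cells, 2 of endothelium, 1 of parotid, 0 of the cell cycle, 5 of the matrix, 5 of tear proteins, 2 of the secretory stimulus and 18 of chemokines. With parotid markers as a covariate they were 5 of the cell cycle, and with muscle markers added 2 of endothelium, 3 of the cell cycle and 2 of the secretory stimulus. Calls of the parotid list itself (1, and 2 with muscle added) say nothing under a covariate made of its 6 tested members. DESeq2 gave 1 of parotid (4 as reported), and the groups compared alone gave 5 of NK cells and 5 of tear proteins. The alternatives of cutoff and filter for lists, and those of the interferon list in the strain difference, were added after seeing the data. Under glmTreat there were 5 of B cells, 3 of plasma cells, 4 of NK cells, 0 of endothelium, 1 of fibroblasts, 0 of the cell cycle, 1 of the imprinted genes, 3 of the matrix, 4 of tear proteins, 1 of the secretory stimulus, 4 of lipid genes, 8 of MHC class I and 9 of cytokines. No fold change cutoff gave 17 of the matrix and 9 of the secretory stimulus, and a mean CPM of at least 1 gave 4 of NK cells. Of interferon genes in the strain difference (23 as reported), 16 passed with the replicate number as a block, 0 under glmTreat and 1 with the rich libraries left out. Leaving out 1 library gave 6 to 10 members of B cells, 4 to 8 of NK cells, 2 to 4 of endothelium and 4 to 16 of the cell cycle.

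The reversals of Bpifa2, Amy1 and Prpmp5 under the parotid covariate, and of Myl1 under the muscle covariate, are likewise largely fixed by construction, since these genes are part of the covariates. Log2 fold changes reversed under the parotid covariate, and with muscle added, for Bpifa2 (2.92, 2.7), Amy1 (3.18, 3.20), Chia (4.85, 4.87), Dcpp1 (4.07, 4.60), Dcpp2 (3.22, 3.57), Dcpp3 (2.76, 3.17), Klk1 (2.91, 3.00), Smr3a (3.05, 2.93) and Prpmp5 (0.0105, 0.49), and with muscle added for Myl1 (-1.06). With the rich libraries left out they reversed for Cdc20 (0.57), Kcnn4 (0.40), Prb1 (3.52) and Prpmp5 (3.29).

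With the replicate number as a block there were 1171 genes higher and 434 lower in NOR, 552 and 341 in BALB/c glands, and 140 and 100 in the strain difference. Deviations of same-numbered NOR libraries correlated at -0.0385, 0.174 and -0.0701, so not every library went with its own number, and the numbers were not used as pairs. The depth of 3-week library 3 limits genes under 0.527 CPM at that age.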
